A study of Mus musculus with 18 samples.

Results

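The EGF family of ligands and receptors was followed in mouse embryonic stem cells in which a Raf kinase could be switched on. The 9 genes were the ligands Hbegf, Areg, Ereg, Btc and Tgfa, the receptors Egfr, Erbb2 and Erbb3, and the receptor inhibitor Errfi1. They were found by symbol through the RefSeq transcript named for each probe, which gave 13 of the 56605 probes on the array. Of the 9 genes, 8 passed the filter on dim probes and stand among the 16022 genes tested. Btc did not pass.

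The labels describe 18 arrays, 1 per sample, of strain 129SV embryonic stem cells that lack Esrrb, an orphan nuclear receptor active in naive pluripotency, and express Raf-ErT2, a Raf fusion activated by 4-hydroxytamoxifen (4OHT). The KO-labelled cells carried an empty vector (9 arrays) and the Rescue-labelled cells an Esrrb transgene (9 arrays), so the deletion and the Raf fusion are common to all samples. Each line had 3 arrays titled 0h (no 4OHT), 3 titled 8h and 3 titled 8h2h. Per the treatment text, 8h stands for 250 nM 4OHT for 8 h, and 8h2h for 8 h of 4OHT followed by 2 h with a Mek inhibitor. All cells had been grown with serum, LIF and the GSK3 inhibitor Chir99021 (2 uM), and for the last 24 h before treatment the medium held serum, LIF and PD173074 (250 nM), which blocks FGF receptors. The labels give neither the number of clones nor the promoter of the transgene, and they do not say whether replicates a, b and c were separate cultures, so a p-value measures only the spread between these samples.

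EGF-family ligands are made as membrane-anchored precursors that ADAM metalloproteases cut free. They bind EGFR or ErbB receptors, which pair with each other and signal through Grb2, Sos and Ras to Raf, Mek and ERK. Erbb2 has no known ligand of its own and serves as a partner, Erbb3 has little kinase activity and binds neuregulins, and Errfi1 (also called Mig6) binds the EGFR kinase domain and blocks it. Genes for several of these ligands and for Errfi1 are known ERK targets, so the family can act both above and below the kinase that was switched on here.

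Some facts about the samples bear on every value. On 12 of the 18 arrays title and source name disagree: the Mek inhibitor stands in the source name of arrays titled 8h and is missing from that of arrays titled 8h2h. Groups follow the titles, and 5 genes fixed as ERK outputs (Dusp6, Spry2, Spry4, Egr1 and Etv4) were lower on the 8h2h array than on the 8h array of the same line and replicate in 30 of 30 pairs. Esrrb signal went against the line labels, averaging 5.03 ± 0.27, 3.75 ± 0.31 and 3.85 ± 0.54 (log2 scaled signal, SD, n = 3) on KO-labelled arrays at 0h, 8h and 8h2h, and 4.40 ± 0.41, 1.91 ± 0.21 and 1.62 ± 0.13 on Rescue-labelled arrays. The labels do not say which part of Esrrb was deleted, so the probe may lie outside it, and every direction between lines below rests on the labels as given. The KO-labelled 8h2h replicate b had a high background: 88.6% of its probes were flagged well above background, against 46.6% to 56.4% on the other 8 KO-labelled arrays and 53.5% to 63.8% on the Rescue-labelled arrays. All 10 embryonic stem cell markers were well above background on every array. Hereafter a level is the log2 signal minus the array's 75th percentile, and a change is a difference of such levels with its SE from 1 limma fit over all 18 arrays, called where the p adjusted by Benjamini-Hochberg was below 0.05.

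After Raf activation, transcripts of the ligand Hbegf and of the inhibitor Errfi1 were higher in both lines. Of the dim ligands, Ereg was called higher in both lines and Areg in the Rescue-labelled line. Areg was also higher at 8h on 3 of 3 slides in the KO-labelled line, where it was not called (adjusted p = 0.0752 in limma). The line difference in its change was not called either (adjusted p = 0.599). In the KO-labelled line, 3 of the 8 tested members rose at 8h against 0h (Hbegf, Ereg and Errfi1) and 1 fell (Egfr), while 25.4% of all genes were called, 11.9% higher and 13.5% lower. In the Rescue-labelled line 4 members rose (Hbegf, Areg, Ereg and Errfi1) and none fell in limma, where 5 of the 8 had an unadjusted p below 0.05 and 29.1% of all genes were called, 13.0% higher and 16.1% lower. At 8h2h against 8h, 1 member rose (Egfr) and 2 fell (Hbegf and Errfi1) in the KO-labelled line, with 7.35% of all genes called, 4.14% higher and 3.20% lower. Among Rescue-labelled arrays 3 members fell at 8h2h (Hbegf, Areg and Errfi1), with 2.88% of all genes called, 1.43% higher and 1.45% lower. Areg and Ereg passed the filter on dim probes only through the 8h groups, in which they were high. The counts above include them, but their changes to and from 8h are descriptions only. Tgfa passed only through the Rescue-labelled 8h and 8h2h groups, and Erbb3 only through the Rescue-labelled groups, so their place among the 8 also came from groups in which they were read. The 4 members well above background on every array were Hbegf, Egfr, Erbb2 and Errfi1. At 8h against 0h, 2 of these 4 rose and 1 fell in the KO-labelled line, and 2 rose and 0 fell in the Rescue-labelled line in limma. Their median change was 0.23 in the KO-labelled line and 0.81 in the Rescue-labelled line, beside -0.04 and -0.05 over all genes. At 8h2h against 8h their median was -0.34 in the KO-labelled line (-0.24 without the high-background array) and -0.62 in the Rescue-labelled line, beside 0.01 and 0.00 over all genes.

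Between the lines, 2 members were lower on KO-labelled arrays at each titled time, and they were Egfr and Errfi1 each time. The call rates over all genes were 18.4% at 0h (7.09% higher and 11.3% lower), 21.5% at 8h (9.16% higher and 12.4% lower) and 21.8% at 8h2h (9.55% higher and 12.3% lower). At 8h2h against 0h no member was called in the KO-labelled line by limma, although 3 had an unadjusted p below 0.05, and 22.4% of all genes were called. Errfi1, 1 of the 8 tested, was called higher at 8h2h than at 0h in the Rescue-labelled line, with 21.3% of all genes called (10.5% higher, 10.8% lower). The change at 8h differed between the lines for 1 member, Errfi1, and for 2.28% of all genes. The change at 8h2h against 8h differed for no member (3 with an unadjusted p below 0.05) and for 0.0562% of all genes.

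These splits rest on the scaling. Without scaling, the median over all genes shifted by up to 0.47 (KO-labelled 8h2h minus 0h), and the share of called genes that were higher moved by more than 10 points in several comparisons. It was 79.2% instead of 46.9% for the KO-labelled 8h against 0h and 80.7% instead of 44.7% for the Rescue-labelled 8h against 0h. For 8h2h against 0h it was 95.6% instead of 49.2% in the KO-labelled line and 90.8% instead of 49.3% in the Rescue-labelled line. For KO-labelled against Rescue-labelled arrays at 8h2h it was 64.2% instead of 43.8%, for the KO-labelled 8h2h against 8h 74.4% instead of 56.4%, and for the line difference at 8h 25.9% instead of 46.8%. For the line difference at 8h2h against 8h it was 100% of 5 genes instead of 88.9% of 9. No called member changed direction without scaling.

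**Figure D1:**
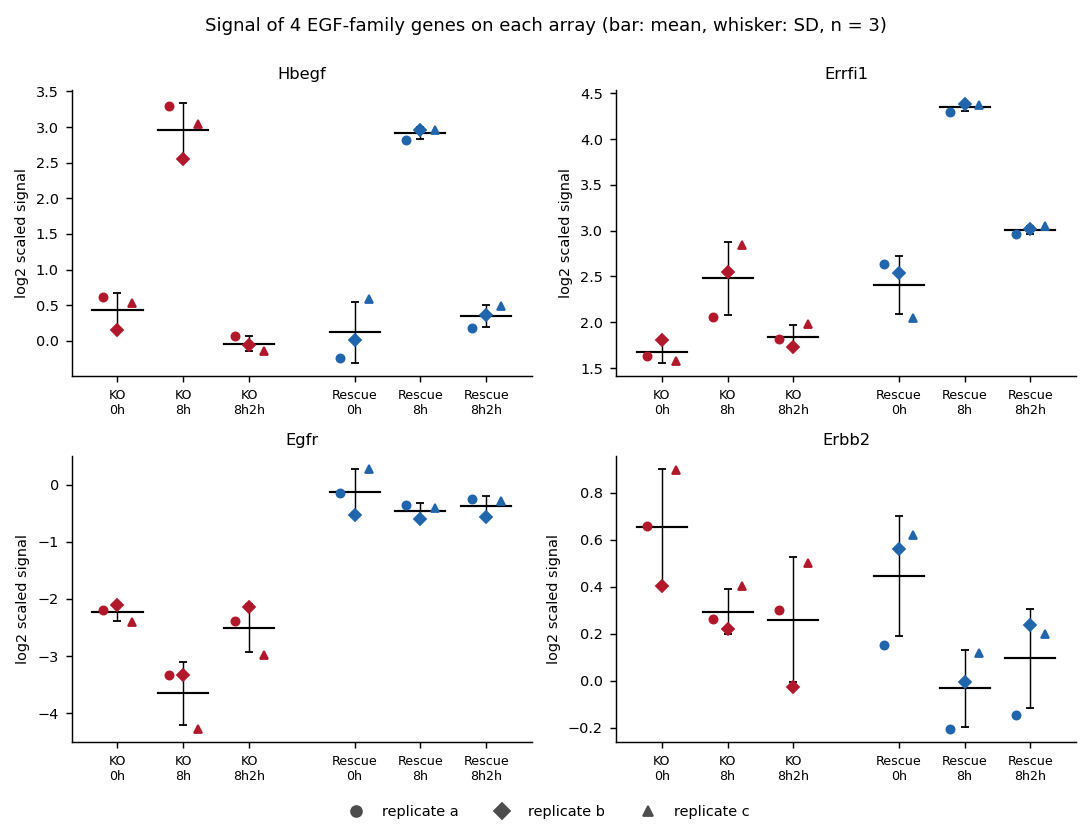
Level of Hbegf, Errfi1, Egfr and Erbb2 on each array (y axis, log2 scaled signal; x axis, the 3 KO-labelled groups left of the 3 Rescue-labelled groups), with the mean as a bar and the SD as a whisker (n = 3). Hbegf stands high at 8h in both lines, Errfi1 is lower on KO-labelled arrays at each time, and Egfr is lower on all 9 KO-labelled arrays, with its lowest values at 8h.

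Hbegf, the heparin-binding ligand that activates EGFR and ErbB4, changed most with treatment among the 4 members well above background on every array. Its level on KO-labelled arrays was 0.61, 0.15 and 0.53 at 0h (replicates a, b and c), 3.30, 2.55 and 3.04 at 8h, and 0.08, -0.05 and -0.14 at 8h2h. On Rescue-labelled arrays it was -0.24, 0.01 and 0.59 at 0h, 2.82, 2.96 and 2.96 at 8h, and 0.19, 0.36 and 0.49 at 8h2h. The 6 arrays titled 8h stood above the other 12 without overlap.

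Hbegf was 5.78-fold higher at 8h than at 0h in the KO-labelled line (2.53 ± 0.21 on the log2 scale, adjusted p = 8.3e-07 in limma) and 6.95-fold higher in the Rescue-labelled line (2.80 ± 0.21, adjusted p = 2.76e-07). It was then 8-fold lower at 8h2h than at 8h in the KO-labelled line (-3.00 ± 0.21, adjusted p = 9.05e-07), the 17th lowest change among 16022 genes. In the Rescue-labelled line it was 5.94-fold lower (-2.57 ± 0.21, adjusted p = 6.75e-06), the 20th lowest change. These 4 calls held under all 28 alternatives, single arrays left out included. Hbegf at 8h2h was not called different from 0h, at -0.47 (adjusted p = 0.13) in the KO-labelled line and 0.23 (adjusted p = 0.518) in the Rescue-labelled line.

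The lines were not called different in Hbegf at any time. KO minus Rescue was 0.31 at 0h (adjusted p = 0.355), 0.05 at 8h (0.92) and -0.38 at 8h2h (0.231), each with an SE of 0.21. The line difference was -0.27 ± 0.30 in the change at 8h (adjusted p = 0.845) and -0.43 ± 0.30 in the change at 8h2h against 8h (adjusted p = 0.996).

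Areg (amphiregulin) and Ereg (epiregulin), EGFR ligands whose genes are neighbours, gave dim signals that were read well above background mainly at 8h. In RefSeq the ligand genes Epgn, Ereg, Areg and Btc follow one another on chromosome 5. Areg was not well above background on any of the 6 arrays titled 0h. Its level was -5.06, -4.19 and -4.32 on KO-labelled arrays at 8h. At 8h2h in that line it was -2.86 on the high-background replicate b and not well above background on replicates a and c (measured -6.52 and -6.58). Rescue-labelled arrays gave -2.45, -2.45 and -2.30 at 8h, and -5.62, -5.92 and -5.67 at 8h2h, with replicate b not well above background. The Rescue-labelled 8h arrays were thus the highest, above the KO-labelled 8h arrays without overlap.

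Since its place among the tested genes came from the 8h groups alone, the p-values for Areg to and from 8h describe a difference that the filter favoured. In the Rescue-labelled line the fitted change at 8h against 0h was 4.01 ± 0.81 (adjusted p = 0.00183 in limma), a call kept under all 27 alternatives (adjusted p from 2.42e-05 to 0.0109). Areg was at least 7.75-fold higher there, a bound that the p-value does not test. The bound sets the 8h mean against the lowest signal that was read above background on each 0h array, or the probe's own signal where that was higher. Areg was 10.1-fold lower at 8h2h than at 8h in that line (-3.33 ± 0.81, adjusted p = 0.0417), with 2 of 3 arrays at 8h2h well above background. That call was kept under 12 of 27 alternatives, whose adjusted p ran from 8.72e-05 to 0.142, and was lost without any 1 of 13 of the 18 arrays, controls among them. In the KO-labelled line the change at 8h was not called (2.11 ± 0.81 fitted, adjusted p = 0.0752), and the 8h signals gave no bound above 1. The lowest signal read above background at 0h was -4.55, -3.99 and -4.77 on KO-labelled arrays. On Rescue-labelled arrays it was -5.66, -5.61 and -5.53, so bounds cannot be compared between the lines. Areg at 8h was 4.35-fold lower on KO-labelled than on Rescue-labelled arrays, which was not called (-2.12 ± 0.81, adjusted p = 0.0807).

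These uncalled values turned on single arrays and on the processing. Without the KO-labelled 8h2h replicate b, the adjusted p for Areg was 0.00461 for the KO-labelled 8h against 0h and 0.00493 for KO-labelled against Rescue-labelled arrays at 8h, over ranges of 0.000297 to 0.368 and 0.00191 to 0.231 across all alternatives. Both also passed without the Rescue-labelled 0h replicate c (0.0434 and 0.0474), with quantile normalization (0.000297 and 0.00408) and with only the arrays compared (0.00423 and 0.00191). The first passed without scaling too (0.0429), and the second with normexp background correction (0.00408). Each was thus called under 5 of 27 alternatives. The KO-labelled 8h2h minus 8h was -0.80 ± 0.81 with the KO-labelled 8h2h replicate b (adjusted p = 0.603). Without it the fitted change was -2.03 ± 0.55 (adjusted p = 0.0451). Areg was then at least 1.04-fold lower, a bound given since neither of the 2 arrays left was well above background. The fitted line difference in Areg, which includes groups below background, was not called at 8h (-1.90 ± 1.15, adjusted p = 0.599) or at 8h2h against 8h (2.54 ± 1.15, adjusted p = 0.996). Leaving that array out took the second of these to 1.31 ± 0.73.

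Ereg followed a like course. It was not well above background on any array titled 0h. At 8h its level was -4.68, -4.13 and -3.77 in the KO-labelled line and -3.51, -3.07 and -3.37 in the Rescue-labelled line, well above background on all 6 arrays. At 8h2h the KO-labelled arrays gave -2.90 on the high-background replicate b and measured -6.11 and -6.49, not well above background, on replicates a and c. The Rescue-labelled arrays gave -5.39 and -5.53 on replicates b and c, with replicate a not well above background (measured -6.45).

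Ereg, whose place among the tested genes also came from the 8h groups alone, was higher at 8h in both lines. In the KO-labelled line the fitted change was 2.48 ± 0.68 (adjusted p = 0.0151 in limma) and the bound at least 1.19-fold. In the Rescue-labelled line they were 4.29 ± 0.68 (adjusted p = 0.000275) and at least 4.88-fold. The 0h level used for the bound was -4.44 on KO-labelled and -5.60 on Rescue-labelled arrays, so the bounds cannot be compared between the lines. The adjusted p tests the fitted change, which uses 0h signals not well above background, and not the bound. The KO-labelled call was kept under 24 of 27 alternatives. It was lost without the KO-labelled 0h replicate c (adjusted p = 0.0581), without the KO-labelled 8h replicate c (0.0605) and with normexp background correction (0.327). The change at 8h2h against 8h was not called in the KO-labelled line (-0.97 ± 0.68, adjusted p = 0.444) or the Rescue-labelled line (-2.48 ± 0.68, adjusted p = 0.0778). With the high-background array left out, the fitted KO-labelled change was -2.11 ± 0.36 (adjusted p = 0.00299). Ereg at 8h2h was then at least 1.31-fold lower than at 8h in that line, with neither array left at 8h2h well above background. The Rescue-labelled change was -2.48 ± 0.32 (0.000437) without that array. The adjusted p for the lines ran over ranges of 0.00041 to 0.789 and 0.000437 to 0.302 across all alternatives. The Rescue-labelled change also passed without the KO-labelled 8h2h replicate c (0.0467) and with the slide as a replicate block (0.0484). Fitted Ereg at 8h2h minus 0h was 1.51 ± 0.68 in the KO-labelled line (adjusted p = 0.131) and 1.81 ± 0.68 in the Rescue-labelled line (0.0759). In the KO-labelled line it was 0.37 (adjusted p = 0.508) without the high-background 8h2h replicate b, when no array of either group was well above background, and 2.17 (0.0378) without replicate c, which keeps replicate b in the mean. In the Rescue-labelled line, where Ereg was higher at 8h2h on 3 of 3 slides, it passed under 6 of 27 alternatives, among them the slide as a replicate block (0.0497) and those without the KO-labelled 8h2h replicate b (0.000861) or c (0.0495). The slide differences there are against 0h signals not well above background, and the signals gave no bound above 1. That fitted change ran from -0.08 to 2.22 over the alternatives. The adjusted p for the lines ran over ranges of 0.0378 to 0.846 and 0.000861 to 0.841. The lines were not called different at 8h (-0.88 ± 0.68, adjusted p = 0.424), nor in the change at 8h (-1.81 ± 0.97, adjusted p = 0.513). The line difference in that change passed with the high-background array left out (adjusted p = 0.0379, in a range of 0.0379 to 1 over all alternatives). This difference includes the 0h groups, below background in each line, with measured means of -6.67 (KO-labelled) and -7.60 (Rescue-labelled).

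**Figure D2:**
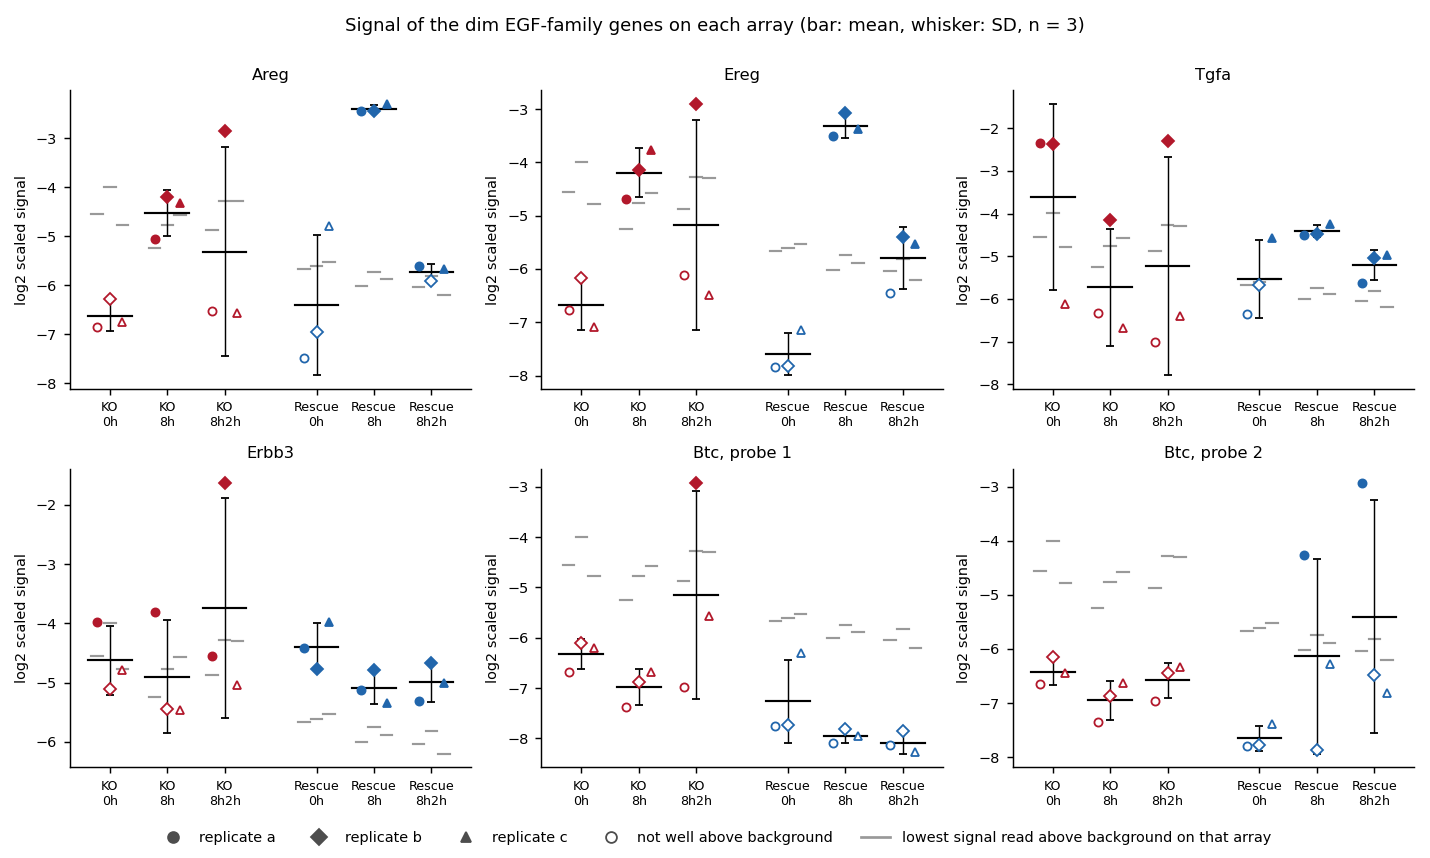
Level of the dim members on each array (y axis, log2 scaled signal; x axis, KO-labelled groups left of Rescue-labelled groups), with the mean as a bar and the SD as a whisker (n = 3). Open symbols are not well above background, and grey ticks mark the lowest signal read above background on that array. Areg and Ereg have filled symbols on all 6 arrays titled 8h and open ones on all 6 titled 0h, and the KO-labelled 8h2h replicate b (filled diamond) stands far above its group in 5 of the 6 panels.

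The start-site windows of Areg and Errfi1 are shown because both genes were higher at 8h in the Rescue-labelled line and because they were the only member windows that held any of the 5 motifs searched. The windows span 250 bases before to 50 bases after a transcript start, from RefSeq on GRCm38.p6, where 7 windows matched 6 of the 9 members. Capitals mark the palindrome TGACGTCA, the core of the cAMP response element that CREB and ATF factors bind.
Areg, chr5:91139349-91139648, plus strand: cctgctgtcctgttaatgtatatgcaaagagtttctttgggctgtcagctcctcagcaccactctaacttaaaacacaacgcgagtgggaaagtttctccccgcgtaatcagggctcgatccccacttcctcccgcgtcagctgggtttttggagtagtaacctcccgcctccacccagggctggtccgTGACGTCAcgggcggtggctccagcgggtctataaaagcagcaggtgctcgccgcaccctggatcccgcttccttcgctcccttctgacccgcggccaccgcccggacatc
Errfi1, chr4:150854820-150855119, plus strand: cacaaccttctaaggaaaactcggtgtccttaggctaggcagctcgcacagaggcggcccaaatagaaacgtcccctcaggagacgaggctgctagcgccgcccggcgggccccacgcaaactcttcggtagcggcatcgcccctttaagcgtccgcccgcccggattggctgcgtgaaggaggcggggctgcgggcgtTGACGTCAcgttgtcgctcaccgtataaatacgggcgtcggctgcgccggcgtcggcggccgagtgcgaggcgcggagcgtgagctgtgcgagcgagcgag
The motif begins 61 bases before the start site of Areg and 51 bases before that of Errfi1, which has another window without it. On either strand, 1.79% of all 32851 promoter windows held it. The AP-1 motif TGACTCA stood in 5.20% of all windows, the EGR motif GCGTGGGCG in 0.612%, the ETS motif CCGGAAGT in 3.89% and the Esrrb motif TCAAGGTCA in 0.423%. None of these stood in a member window, and no match here shows that a factor was bound. Hbegf, Ereg and Erbb3 had no window and were not searched. The motifs were chosen after the windows had been read.

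Tgfa, a further EGFR ligand, gave no called change, and its values scattered within groups. Its level on KO-labelled arrays was -2.34 and -2.37 on 0h replicates a and b. Its signal on replicate c was not well above background (measured -6.13). Only replicate b was well above background at 8h (-4.16) and at 8h2h (-2.31, the high-background array). Of the Rescue-labelled arrays only replicate c was well above background at 0h (-4.57). All 3 arrays were at 8h (-4.50, -4.49 and -4.25) and at 8h2h (-5.62, -5.05 and -4.96).

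KO minus Rescue in Tgfa was 1.92 at 0h (adjusted p = 0.292), -1.31 at 8h (0.493) and -0.03 at 8h2h (0.991), each ± 1.16. At 8h2h it was -1.49 ± 0.98 without the high-background array (adjusted p = 0.299), when neither KO-labelled array left was well above background. The KO-labelled 8h2h minus 0h was -1.62 ± 1.16 (adjusted p = 0.341). With the high-background array left out, the fitted change was -3.09 ± 0.98 (adjusted p = 0.0374, in a range of 0.0347 to 0.684 over all alternatives). Neither of the 2 arrays left at 8h2h was then well above background, and Tgfa was at least 1.96-fold lower than at 0h, where replicate c was not well above background either. The KO-labelled 8h minus 0h was -2.11 ± 1.16 (adjusted p = 0.218), and -3.37 without the 0h replicate c (0.0458, in a range of 0.042 to 0.48). Btc (betacellulin), which binds EGFR and ErbB4, was well above background on 3 of 18 arrays over its 2 probes. These were the high-background KO-labelled array by probe 1 (-2.91), and the Rescue-labelled replicate a at 8h (-4.27) and at 8h2h (-2.92) by probe 2. No change in Btc was tested.

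Egfr, the receptor shared by the 5 ligands, was lower on KO-labelled arrays throughout. Its level on KO-labelled arrays was -2.19, -2.10 and -2.39 at 0h, -3.33, -3.34 and -4.29 at 8h, and -2.39, -2.15 and -2.98 at 8h2h. On Rescue-labelled arrays it was -0.14, -0.52 and 0.27 at 0h, -0.35, -0.61 and -0.40 at 8h, and -0.25, -0.56 and -0.28 at 8h2h. No KO-labelled array reached the lowest Rescue-labelled one.

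KO minus Rescue in Egfr was -2.10 at 0h (4.29-fold lower, adjusted p = 0.000102 in limma), -3.20 at 8h (9.18-fold, adjusted p = 3.39e-06) and -2.14 at 8h2h (4.41-fold, adjusted p = 7.86e-05), each ± 0.27. All 3 calls held under all 28 alternatives that keep this probe. In the KO-labelled line Egfr fell 2.68-fold at 8h against 0h (-1.42 ± 0.27, adjusted p = 0.00121), a call lost without scaling (adjusted p = 0.0759). It rose 2.21-fold at 8h2h against 8h (1.15 ± 0.27, adjusted p = 0.0189), a call kept under 21 of 28 alternatives, with adjusted p up to 0.85. Without the KO-labelled 8h2h replicate b that rise was 0.97 ± 0.29 (adjusted p = 0.068), and without the KO-labelled 8h replicate c it was 0.83 (adjusted p = 0.0862). In the Rescue-labelled line the changes were -0.32 at 8h against 0h (adjusted p = 0.425) and 0.09 at 8h2h against 8h (adjusted p = 1). The line difference was not called for either change, at -1.10 ± 0.38 (adjusted p = 0.2) and 1.06 ± 0.38 (adjusted p = 0.996).

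The other 2 Egfr probes were dimmer and passed the filter only through the Rescue-labelled groups, in which they were higher, so they are described and support nothing. Probe 3, assigned to the same RefSeq transcript as probe 1, was not well above background on any KO-labelled array and read -2.69 to -3.37 on the Rescue-labelled ones. Probe 2, assigned to another RefSeq transcript, was well above background on all 9 Rescue-labelled arrays (-3.35 to -3.73) and on 2 KO-labelled arrays. Its KO minus Rescue was not called, at -1.15 (adjusted p = 0.258), -1.61 (0.0905) and -0.91 (0.346), each ± 0.59.

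**Figure D3:**
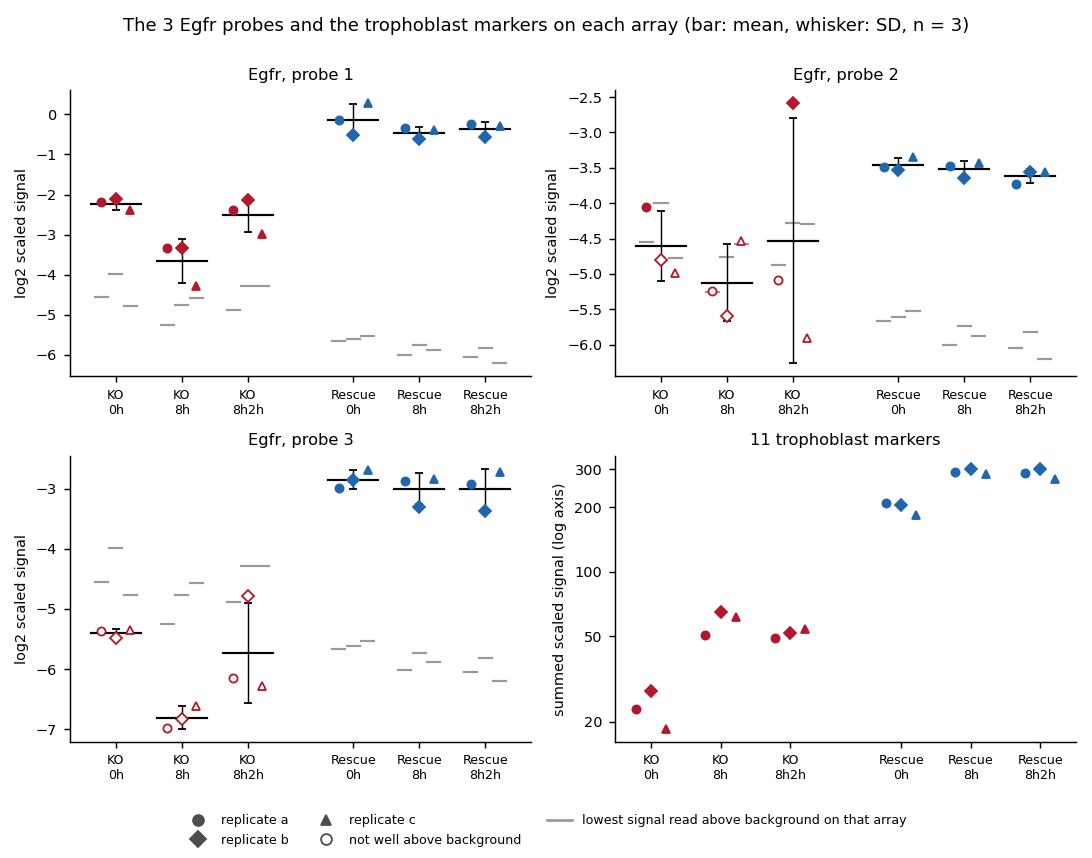
Level of the 3 Egfr probes on each array (y axis, log2 scaled signal, with the mean as a bar and the SD as a whisker, n = 3) and the summed signal of 11 trophoblast markers (y axis, scaled signal on a log axis, 1 point per array), with KO-labelled groups left of Rescue-labelled groups. Open symbols are not well above background and grey ticks mark the lowest signal read above background. Probes 1 and 3 and the marker sum are lower on all KO-labelled arrays, and probe 2 overlaps through the KO-labelled 8h2h replicate b.

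Trophoblast markers moved with Egfr between the lines. Of the 12 listed, 11 were tested, and their summed scaled signal was 18.6 to 28.0, 50.8 to 64.6 and 49.1 to 54.2 on KO-labelled arrays at 0h, 8h and 8h2h, and 183 to 208, 284 to 299 and 269 to 300 on Rescue-labelled arrays. Cdx2, Elf5, Hand1 and Plac1 were well above background on no KO-labelled 0h array, and Elf5 was on no Rescue-labelled 0h array either. The sum on KO-labelled arrays was higher at 8h than at 0h, whereas Egfr on those arrays was lower. The part of trophoblast-like cells in the Egfr difference was not tested, and in these bulk samples fewer cells with the transcript and less of it per cell cannot be told apart. Fibroblast markers (6 of 8 tested) summed to 2.09 to 2.59, 14.8 to 21.2 and 9.46 to 14.8 on KO-labelled arrays and to 1.99 to 2.35, 6.41 to 7.55 and 4.82 to 5.61 on Rescue-labelled arrays at 0h, 8h and 8h2h. Lum was well above background in no group, and Col3a1, Dcn and Postn were on no KO-labelled 8h array. At 8h, 3 of the 8 markers were well above background on all 3 KO-labelled arrays and 4 on all 3 Rescue-labelled arrays. The fibroblast sum was higher at 8h, as Hbegf, Ereg and Errfi1 were, but it rests on part of the list, and its part in those changes was not tested. Primitive endoderm markers (8 of 8 tested) summed to 24.7 to 33.4, 20.8 to 28.6 and 19.8 to 32.0 on KO-labelled arrays and to 13.8 to 18.4, 15.6 to 19.6 and 17.3 to 21.4 on Rescue-labelled arrays, higher on KO-labelled arrays at 0h and 8h without overlap. Gata4 was well above background on no KO-labelled array at 0h or 8h2h. The 10 embryonic stem cell markers summed to 770 to 826, 582 to 684 and 513 to 669 on KO-labelled arrays and to 612 to 751, 511 to 528 and 452 to 531 on Rescue-labelled arrays, lower at 8h than at 0h in each line. The part of either sum in the members' changes was not tested.

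Erbb2, the partner receptor, was measured well above background on every array and gave no called change in the main fit. KO-labelled arrays gave levels of 0.66, 0.40 and 0.90 at 0h, 0.26, 0.22 and 0.40 at 8h, and 0.30, -0.03 and 0.50 at 8h2h. Rescue-labelled arrays gave 0.15, 0.56 and 0.62 at 0h, -0.21, -0.00 and 0.12 at 8h, and -0.15, 0.24 and 0.20 at 8h2h. At 8h minus 0h it changed by -0.36 ± 0.17 in the KO-labelled line (adjusted p = 0.162 in limma) and by -0.48 ± 0.17 in the Rescue-labelled line (adjusted p = 0.0542). The Rescue-labelled change was called under 9 of 28 alternatives, over a range of 0.0199 to 0.738, among them the slide as a replicate block (adjusted p = 0.0199, lower at 8h on 3 of 3 slides) and those without the Rescue-labelled 0h replicate a (-0.62, adjusted p = 0.0219), the KO-labelled 0h replicate b or c, or the KO-labelled 8h2h replicate b or c. The filter requiring all 18 arrays (0.0397), averaged probes (0.0445) and the trended robust prior (0.0393) gave the call too. KO minus Rescue was 0.21, 0.33 and 0.16 at 0h, 8h and 8h2h (adjusted p = 0.471, 0.221 and 0.554). The other Erbb2 probe gave 0.48 ± 0.15 at 8h2h (adjusted p = 0.042).

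Erbb3, the neuregulin receptor with little kinase activity of its own, was dim. Among KO-labelled arrays it was well above background on replicate a at 0h (-3.98), 8h (-3.80) and 8h2h (-4.55), and on the high-background replicate b at 8h2h (-1.62). On the rest it was not, measured -5.10 and -4.79 at 0h, -5.44 and -5.47 at 8h, and -5.05 at 8h2h. Its level on Rescue-labelled arrays was -4.42, -4.77 and -3.98 at 0h, -5.13, -4.78 and -5.34 at 8h, and -5.32, -4.67 and -5.00 at 8h2h, well above background on all 9. The lowest signal read above background was -5.25 or higher on KO-labelled and -5.53 or lower on Rescue-labelled arrays. Being read on more Rescue-labelled arrays therefore does not show a higher Erbb3 signal there. No comparison was called. The largest fitted change, 1.26 ± 0.69 for KO minus Rescue at 8h2h (adjusted p = 0.231), became 0.20 when the high-background array was left out.

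Errfi1, the feedback inhibitor of EGFR, rose in both lines and was lower on KO-labelled arrays at each time. KO-labelled arrays gave levels of 1.63, 1.81 and 1.58 at 0h, 2.05, 2.55 and 2.84 at 8h, and 1.82, 1.74 and 1.98 at 8h2h. Rescue-labelled arrays gave 2.64, 2.54 and 2.05 at 0h, 4.29, 4.38 and 4.37 at 8h, and 2.96, 3.02 and 3.05 at 8h2h. At each titled time the KO-labelled arrays lay below the Rescue-labelled ones without overlap.

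Errfi1 rose 1.75-fold at 8h against 0h in the KO-labelled line (0.81 ± 0.18, adjusted p = 0.00383 in limma) and 3.83-fold in the Rescue-labelled line (1.94 ± 0.18, adjusted p = 1.81e-06), both under all 28 alternatives. The change was smaller in the KO-labelled line by 1.13 ± 0.25 on the log2 scale, coded as KO minus Rescue at -1.13 (adjusted p = 0.0311). That difference was called under 16 of 28 alternatives, with adjusted p from 0.0123 to 0.608, and was lost without any 1 of 9 of the 18 arrays. KO minus Rescue was -0.74 at 0h (1.67-fold lower, adjusted p = 0.0105), -1.87 at 8h (3.65-fold, adjusted p = 8.31e-06) and -1.17 at 8h2h (2.25-fold, adjusted p = 0.000361), each ± 0.18. The value at 8h was called under all 28 alternatives, and without scaling those at 0h and 8h2h were not called (adjusted p = 0.36 and 0.0627).

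At 8h2h against 8h, Errfi1 fell 1.56-fold in the KO-labelled line (-0.64 ± 0.18, adjusted p = 0.0453) and 2.53-fold in the Rescue-labelled line (-1.34 ± 0.18, adjusted p = 0.000646). The KO-labelled call stood under only 8 of 28 alternatives, was lost with the slide as a replicate block (adjusted p = 0.0522), was lost without any 1 of 15 of the 18 arrays, and had adjusted p up to 0.571. The Rescue-labelled call was lost without scaling (adjusted p = 0.0887). Errfi1 at 8h2h stayed 1.52-fold above 0h in the Rescue-labelled line (0.60 ± 0.18, adjusted p = 0.0267), called under 23 of 28 alternatives, and lost without the Rescue-labelled 0h replicate c (0.42, adjusted p = 0.112) or any 1 of the Rescue-labelled 8h2h arrays (up to 0.0805). In the KO-labelled line it was 0.17 (adjusted p = 0.524).

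The rest of the pathway was read from a list of 36 genes, of which 33 were tested. The ligands Epgn and Nrg3 and the receptor Erbb4 were not, being well above background on 0, 3 and 1 of 18 arrays. At 8h against 0h, 6 rose and 4 fell in the KO-labelled line (30.3% called, beside 25.4% of all genes), and 9 rose and 4 fell in the Rescue-labelled line (39.4%, beside 29.1%). At 8h2h against 8h, 2 fell in the KO-labelled line (6.06%, beside 7.35%) and 1 in the Rescue-labelled line (3.03%, beside 2.88%). The list held 2 higher and 4 lower genes on KO-labelled against Rescue-labelled arrays at 0h, 2 and 5 at 8h, and 1 and 6 at 8h2h. These were 18.2%, 21.2% and 21.2% of the list, beside 18.4%, 21.5% and 21.8% of all genes. Its median change lay within 0.20 of the median over all genes in each comparison.

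Among the inhibitors, Socs5, which promotes EGFR degradation, followed the course of Hbegf. It rose 5.8-fold at 8h in the KO-labelled line (2.54 ± 0.10, adjusted p = 1.31e-09) and 8.6-fold in the Rescue-labelled line (3.10 ± 0.10, adjusted p = 1.51e-10). At 8h2h it was 3.12-fold lower than at 8h in the KO-labelled line (-1.64 ± 0.10) and 3.13-fold lower in the Rescue-labelled line (-1.65 ± 0.10), and still above 0h in each (0.89 and 1.46). Lrig3, a transmembrane protein of the family that includes the EGFR inhibitor Lrig1, fell 2.77-fold at 8h in the KO-labelled line and 3.1-fold in the Rescue-labelled line (-1.47 and -1.63, each ± 0.13).

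Of the 7 genes for ligand shedding, 2 were called higher at 8h in the KO-labelled line (28.6%, beside 25.4% of all genes) and 1 in the Rescue-labelled line (14.3%, beside 29.1%), with 0 lower in each. Rhbdf1 (iRhom1), a partner of the sheddase Adam17, rose 4.26-fold at 8h in the KO-labelled line (2.09 ± 0.21) and 3.06-fold in the Rescue-labelled line (1.61 ± 0.21), where Adam19 was not called. Adam19 rose 2.97-fold in the KO-labelled line (1.57 ± 0.19, adjusted p = 2.41e-05), having been 2.92-fold lower there than in the Rescue-labelled line at 0h (-1.55 ± 0.19, adjusted p = 7.21e-05). The change in Adam19 at 8h was larger in the KO-labelled line by 1.58 ± 0.27 (adjusted p = 0.00622). The neuregulin Nrg1, a ligand of Erbb3, had a change of -0.32 ± 0.23 at 8h in the KO-labelled line (adjusted p = 0.371) and rose 2.12-fold in the Rescue-labelled line (1.09 ± 0.23, adjusted p = 0.00263). The changes differed by -1.41 ± 0.33 as KO minus Rescue (adjusted p = 0.038).

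**Figure D4:**
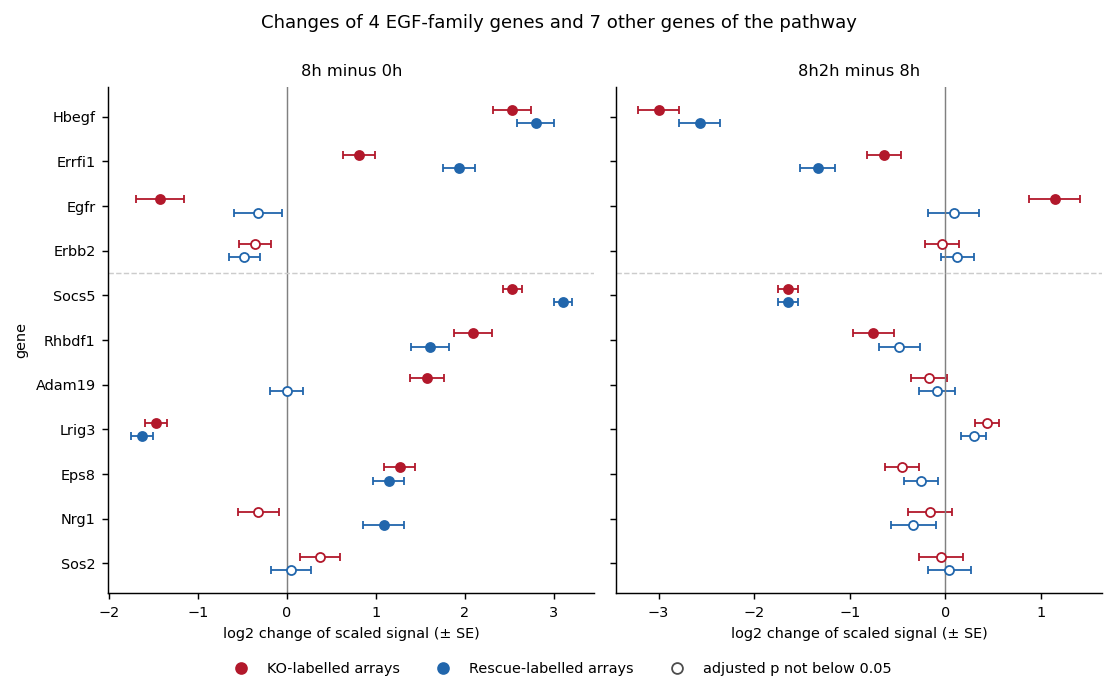
Change of 4 members (above the dashed line) and 7 other pathway genes on the log2 scale (x axis; point and SE) at 8h minus 0h and at 8h2h minus 8h, with KO-labelled arrays above Rescue-labelled arrays for each gene. Open points have an adjusted p that is not below 0.05. Hbegf, Errfi1 and Socs5 lie to the right at 8h and to the left at 8h2h in both lines, and Adam19 and Nrg1 each have a filled point at 8h in 1 line only.

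As a description over the 18 arrays, which share groups, the genes most like each member were listed by Pearson's r. Nearest to Hbegf were Tor3a (0.972), Arc (0.962), Egr1 (0.961), Strn3 (0.961) and Spry2 (0.953). Areg and Ereg correlated with each other at 0.905, and Nkx1-1 stood among the 5 nearest genes of each. Genes near Egfr included Hpn (0.973), Gata2 (0.967), Sct (0.962) and Gpsm1 (0.961). Nearest to Errfi1 were Klf6 (0.968), Cttnbp2nl (0.958), Naa25 (0.946), Zfp326 (0.932) and Il11 (0.923). Nearest to Erbb2 was Arih2 (0.933) and nearest to Tgfa was Resp18 (0.788). For Erbb3 the nearest gene, Acr, had 0.905 on 18 arrays and 0.650 on the 17 others when the high-background array was left out.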

How the data were processed

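RNA of 18 samples was read on 1-colour Agilent arrays, 1 per sample, from 100 ng of labelled total RNA. Per the file headers, spots were extracted with Agilent Feature Extraction 12.0.1.1, and the processed signal the authors deposited is a background-subtracted, linear intensity with no scaling between arrays. The labels name Cy5 while the headers give 1 green channel, which does not enter the values. The authors' value table held the same intensity on all 62976 spots of each array, with medians from 14.5 to 183, so its scale and centring are known, and a 1-colour value has no direction. The deposited median spot signals and backgrounds (intensity) and spot flags (other values) were also read.

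Probes were named through RefSeq transcripts (32994 of 56605). A probe was kept if some group had it flagged well above background on its 3 arrays (34194, with 23318 named, less 107 with outlier spots). The probe with the highest mean stood for a gene. The log2 of the processed intensity was taken minus the 75th percentile of each array, which was 297 to 765 in linear units. A group-means model over 18 arrays was fitted in limma 3.58.1 (R 4.3.3, with version 1.17.8 of data.table), two-sided, with Benjamini-Hochberg adjustment over 16022 genes. The procedure was tested on simulated data.

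Named genes were the 9 members, every probe of each, up to 4 called genes of a fixed pathway list per comparison, fixed ERK outputs, and the 5 nearest genes by correlation. A withheld item among these is not reported here. Members and lists were chosen with earlier results of these data known. Each replicate letter was 1 slide that held all 6 groups in the same places, so position and group cannot be told apart. Deviations of arrays sharing a slide correlated above 0.1 in 28 of 45 pairs (median 0.141, lowest -0.058, highest 0.733), so arrays of 1 slide shared some deviation. The main fit leaves the slide out, which is a limit of its p-values, and the slide as a replicate block is given as an alternative. Alternatives were normexp with an offset of 50 on the median spot signal, no scaling, quantile normalization, the authors' value table, no filter, a filter requiring all 18 arrays, averaged probes, the slide as a replicate block, only the arrays compared, a trended robust prior, other probes, and leaving out each array. The authors' value table held the same intensities and was scaled in the same way, so that alternative repeats the main fit. It is counted among the alternatives but tests nothing. The number of arrays limits the precision.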

Additional observations from a re-analysis of the deposited data

Results flagged for a closer look

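Errfi1 was flagged because its change differed between the lines under a test of the difference itself. At 8h minus 0h the change was 0.81 ± 0.18 in the KO-labelled line and 1.94 ± 0.18 in the Rescue-labelled line on the log2 scale. The difference, KO minus Rescue, was -1.13 ± 0.25 (adjusted p = 0.0311 in limma). Errfi1 was higher at 8h than at 0h on 3 of 3 slides in each line. Over the alternatives the difference ran from -1.31 to -0.92, and it was called under 16 of 28 of them, with adjusted p up to 0.608.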

How the results depend on the processing

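Over 88 results for single members, 2286 of 2453 alternative values kept their direction and side of the threshold, 46 gained a call, 73 lost one, 47 uncalled values changed sign and 1 called value reversed: Ereg KO minus Rescue at 8h2h was 0.62 with 75th-percentile scaling (not called) and -0.95 with quantile normalization, and leaving out the KO-labelled 8h2h replicate b with the same scaling gave -0.51 (not called). Values from the authors' value table, which repeats the main fit, are counted among those that kept theirs and could not have changed.

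Without scaling, calls over all genes numbered 1011, 1211 and 1264 for KO minus Rescue at 0h, 8h and 8h2h (2941, 3450 and 3493 with scaling). For the KO-labelled line they numbered 1828 for 8h minus 0h (4077), 340 for 8h2h minus 8h (1177) and 2356 for 8h2h minus 0h (3595). For the Rescue-labelled line they numbered 2027 (4667), 91 (462) and 1689 (3409), and for the line differences 54 at 8h (365) and 5 at 8h2h against 8h (9). With only the arrays compared, fewer arrays gave 2072 for KO minus Rescue at 8h2h, 135 and 1491 for 8h2h minus 8h in the KO-labelled and Rescue-labelled lines, and 1200 for the KO-labelled 8h2h minus 0h. Normexp gave 700 and 289 for 8h2h minus 8h in these lines and 1 for its line difference. That difference numbered 3 with quantile normalization, 3 with the filter over 18 arrays and 4 with the trended prior. No filter gave 7490 for KO minus Rescue at 8h2h and 236 for the line difference at 8h.

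Leaving out each array gave 1997 to 4145, 2258 to 4630 and 2398 to 4290 for KO minus Rescue at 0h, 8h and 8h2h. It gave 3049 to 5037, 576 to 1444 and 2746 to 4274 for the KO-labelled 8h minus 0h, 8h2h minus 8h and 8h2h minus 0h. The Rescue-labelled ranges were 3528 to 5662, 228 to 718 and 2443 to 4468, and the line differences 184 to 755 and 7 to 17. The lowest KO-labelled 8h2h minus 8h count came without 8h replicate c, and the highest Rescue-labelled 8h2h minus 8h (718) and line difference at 8h (755) came without the KO-labelled 8h2h replicate b.

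Members called for KO minus Rescue (2 at each time) numbered 1 at 0h and 1 at 8h2h without scaling, and 1 at 0h and 4 at 8h with only the arrays compared. For 8h2h minus 8h (3 in each line) they numbered 1 in both lines without scaling, and 1 in the KO-labelled and 5 in the Rescue-labelled line with only the arrays compared. For the Rescue-labelled 8h2h minus 0h (1) they numbered 2 without scaling, 2 with quantile normalization and 2 with the replicate block. In the KO-labelled line (0) they numbered 1 with quantile normalization. For the line difference at 8h (1, Errfi1) they numbered 0 without scaling and 0 without the filter. Leaving out each array gave 2 to 3, 2 to 3 and 2 to 2 for KO minus Rescue, 3 to 5, 1 to 3 and 0 to 1 in the KO-labelled line, 4 to 5, 2 to 4 and 0 to 2 in the Rescue-labelled line, and 0 to 2 and 0 to 0 for the line differences. The Errfi1 line difference was not called without any one of the KO-labelled arrays at 0h, the KO-labelled 8h replicates a and b, the Rescue-labelled arrays at 8h or the Rescue-labelled 0h replicate c.

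With the slide as a replicate block, members called numbered 2, 2 and 2 for KO minus Rescue, 4, 2 and 0 in the KO-labelled line, 5, 4 and 2 in the Rescue-labelled line, and 1 and 0 for the line differences. Calls over all genes then numbered 3522, 4108 and 4104, 4645, 1493 and 4320, 5291, 578 and 4035, and 474 and 12. The block gained 3 member calls (Erbb2 at the Rescue-labelled 8h minus 0h, Ereg at the Rescue-labelled 8h2h minus 8h and 8h2h minus 0h), lost 1 (Errfi1 at the KO-labelled 8h2h minus 8h) and changed no other. Signal over background limits Areg and Ereg, which were above background on no 0h array, and Tgfa, Btc and Erbb3, which were above it on some arrays only.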
